A study of Mus musculus with 8 samples.

Results

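The stanniocalcins STC1 and STC2 were followed in RNA-seq counts from heart muscle cells (cardiomyocytes) of adult mice kept in culture. Both genes were picked by symbol from the 33514 rows of the deposited count table, and the pair was put forward because of how STC1 differed between the groups in these data. Differences of STC1 and STC2 between the groups are therefore given as a description, with no test. Only STC1 had enough counts to enter the fit across 3020 genes.

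Cardiomyocytes of C57BL/6 mice were isolated by perfusing the heart with collagenase and transfected with an siRNA against Hoxa5 (siHoxa5, 4 libraries) or with a negative control siRNA (siN, 4 libraries). Hoxa5 is a homeobox transcription factor. After 24 h, both groups were given phenylephrine at 100 µM for 24 h, an agonist of alpha1-adrenergic receptors used to induce hypertrophic growth. No library without phenylephrine was used here, so the response to the agonist was not measured. Whether repeats are separate animals or cultures is not stated, and p-values below measure the spread between these libraries, which may be technical.

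Stanniocalcins are secreted glycoprotein hormones named after the corpuscles of Stannius, the glands of bony fish that release them to limit calcium uptake. In mammals they act mostly near the cells that make them. STC1 has been described as lowering calcium entry through L-type channels in rat cardiomyocytes and as raising mitochondrial uncoupling proteins in other cells. STC2 and STC1 also inhibit PAPP-A, a protease that frees insulin-like growth factors (IGF) from their binding proteins. STC1 is known as a hypoxia-inducible gene, and STC2 as a target of ATF4 in the endoplasmic reticulum stress response.

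The paralogues lie on different chromosomes and are far apart in sequence. In GENCODE M21 on the GRCm38 assembly, Stc1 (ENSMUSG00000014813.9) lies on chromosome 14 from 69029238 to 69041804 on the plus strand, with 4 exons in 1 transcript. Stc2 (ENSMUSG00000020303.2) lies on chromosome 11 from 31357307 to 31370074 on the minus strand, with 5 transcripts. The coding sequences, without the stop codon, are 741 bases long for Stc1 and 888 bases for Stc2. Their longest identical run is 9 bases. The most alike ungapped stretch of 60 bases has 41 identical bases and crosses the junction of exons 2 and 3 in both genes. The stretch is printed, from the GENCODE transcripts and 5′ to 3′, to show how different the members are where they are most alike, with identical bases in capitals. For Stc1 it holds coding bases 236 to 295, within chr14:69031620-69032267, and for Stc2 coding bases 269 to 328, within chr11:31365510-31367751. Both spans include an intron.
Stc1: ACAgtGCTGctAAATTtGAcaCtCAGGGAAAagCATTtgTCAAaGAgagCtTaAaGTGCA
Stc2: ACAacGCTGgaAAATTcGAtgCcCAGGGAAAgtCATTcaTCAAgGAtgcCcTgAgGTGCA

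Of the 4167 different runs of 31 bases in the Stc1 transcript, none occurs in Stc2 transcripts. Transcripts of 2 other genes hold some of them on either strand. These are Gm41192, an annotated antisense RNA that overlaps the start of Stc1, with 199 runs, and Srek1 with 2 runs. Gm41192 has no row under that name in the count table. The library kit does not mark strand, so reads from the overlap could not be assigned to Stc1 or to its antisense partner if they were counted on mouse gene models, which is not known. The Stc2 transcripts share no run of 31 bases with any other gene.

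Library totals ranged from 560190 to 619942 counts in siHoxa5 and from 635824 to 658192 in siN. On the first principal component, siHoxa5 libraries 2 and 4 lay apart from the other siHoxa5 libraries. The row HOXA5, the siRNA target, had 1, 3, 4 and 1 counts in siHoxa5 libraries 1 to 4 and 2, 0, 3 and 3 counts in siN libraries 1 to 4. The ratio of its summed rates was 1.24, with an exact 95% interval of 0.426 to 3.70 for counting error, so a knockdown was not detectable in these counts and directions refer to libraries as labelled. The rows are named as human genes are. Of 33514 rows, 10042 have clone names of the human annotation's form, 1793 have LINC names, 20 have HLA names and none has a Gm, Rik or H2 name of the mouse annotation, although mm10 is the genome the submitters' notes name. Of these rows, 60 with clone names, 14 with LINC names and 3 with HLA names held a count. The rows thus follow a human annotation, but the gene models were not stated. Which models the mouse reads were counted on was not tested. Rows were matched to mouse genes by symbol only, and where genes are ranked by CPM below, the rank is of the counts their rows received, not of RNA levels. Of 15 cardiomyocyte markers, 8 had 0 counts in all 8 libraries (TNNI3, MYL2, MYL3, MYL7, PLN, NPPA, NPPB and MB). A row at or near 0 in these files therefore does not show that the gene was little expressed, which holds for HOXA5 and STC2 too.

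STC1 was higher in siHoxa5. It had 149, 151, 158 and 119 counts in siHoxa5 libraries 1 to 4, against 67, 63, 63 and 69 counts in siN libraries 1 to 4. As CPM (counts scaled to a common library total after TMM normalization), these were 243, 275, 258 and 216 CPM in siHoxa5 and 103, 100.0, 99.2 and 106 CPM in siN. The groups did not overlap, and siHoxa5 library 4, the lowest of its group, still had 2.05 times the CPM of the highest siN library. The largest ratio of a siHoxa5 library to a siN library was 2.77. In bulk RNA such as this, fewer cells of a type and less RNA per cell cannot be told apart.

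STC1 averaged 248 ± 24.8 CPM in siHoxa5 and 102 ± 2.99 CPM in siN (SD, n = 4 each). The fitted log2 fold change was 1.28 (SE 0.13), a 2.43-fold difference. With summed counts of 577 in siHoxa5 and 262 in siN, the ratio of rates was 2.43, with an exact 95% interval of 2.10 to 2.83 for counting error alone. The spread in siN was smaller than Poisson counting gives on average. Its coefficient of variation was 2.93%, while Poisson counting of 63 to 69 reads gives 12.4%. In siHoxa5 the coefficient of variation was 9.99% and Poisson counting gives 8.33%. The SD of the siN libraries therefore understates the error of their mean, and the per-library count intervals, 76.2 to 134 CPM over the siN libraries, are the wider guide. The lowest of these bounds in siHoxa5 was 179 CPM, in library 4.

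**Figure D1:**
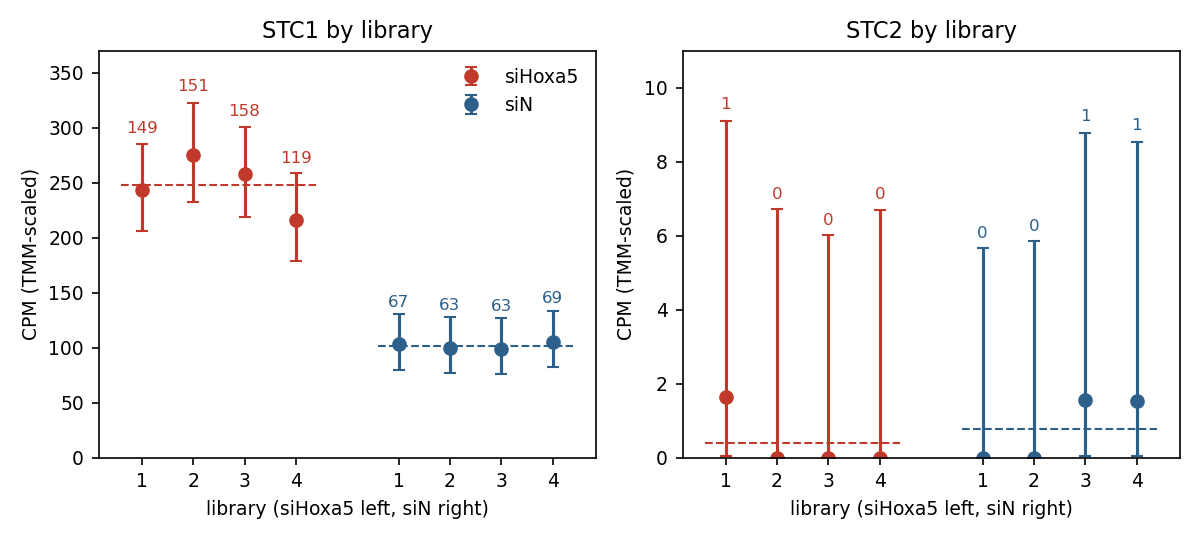
CPM of STC1 and STC2 in each library, siHoxa5 left (red) and siN right (blue), with exact 95% Poisson intervals as bars, group means as dashed lines and the deposited count printed above each bar. The 4 siHoxa5 libraries sit between 216 and 275 CPM for STC1, all above the 4 siN libraries, while no library has more than 1 count of STC2.

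STC1 stood near the top of all fold changes. Its log2 fold change ranked 5 of 3020 tested genes, and its mean of 175 CPM over the 8 libraries ranked 1000. The genes ranked above it were THSD4, HDAC9, MT-CO1 and RGMA, named only for this rank. Their means in siHoxa5 were 45.4, 34.1, 56.2 and 25.0 CPM, so each was measured with fewer counts than STC1, and their standard errors of 0.29 to 0.57 exceeded that of STC1. No tested gene at or above the level of STC1 had a larger increase. Of all tested genes, 215 (7.12%) were called by edgeR's quasi-likelihood test at a Benjamini-Hochberg adjusted p under 0.05, 113 (3.74%) higher and 102 (3.38%) lower, and STC1 was among those called higher. With library totals alone in place of TMM scaling, 99 were called higher and 120 lower. The groups did not overlap for 12.0% of tested genes. Nothing is read from the call of STC1, since the gene was chosen for this difference.

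The difference in STC1 did not rest on a single library. Leaving out each library in turn, the log2 fold change ran between 1.23 (without siHoxa5 library 2) and 1.34 (without siHoxa5 library 4). Without both siHoxa5 libraries 2 and 4 it was 1.30.

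**Figure D2:**
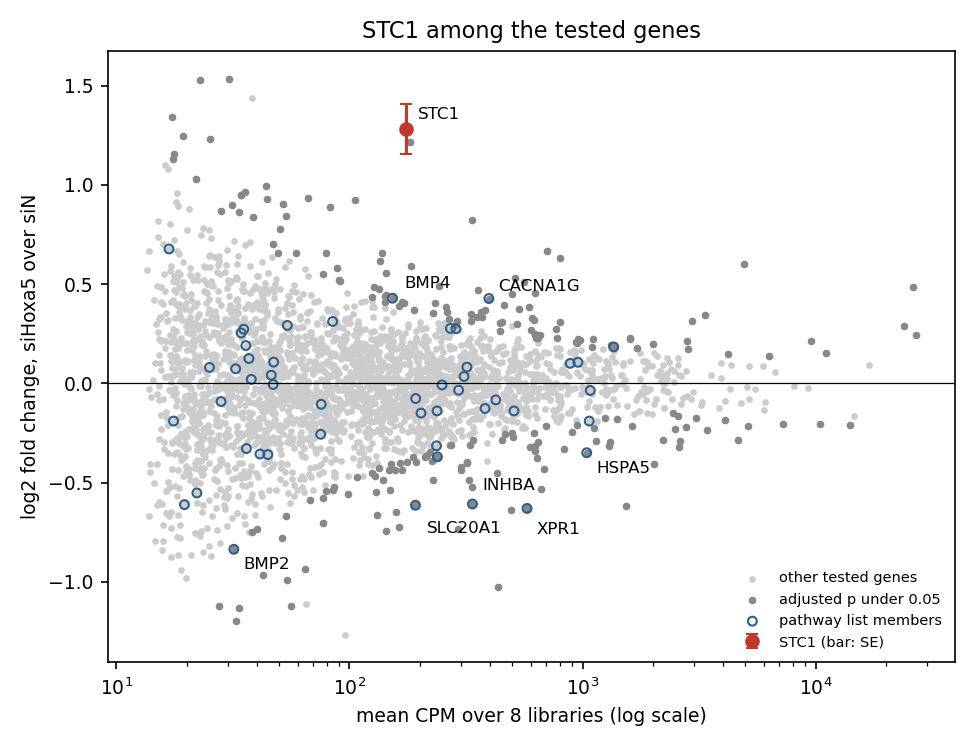
Log2 fold change (siHoxa5 over siN) against mean CPM on a log axis for the 3020 tested genes. STC1 (red, bar: SE) lies at 1.28 and 175 CPM, above every tested gene of at least its level, and the circled pathway list members lie between -0.84 and 0.68.

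STC2 had hardly any counts. It had 1, 0, 0 and 0 counts in siHoxa5 libraries 1 to 4 and 0, 0, 1 and 1 counts in siN libraries 1 to 4. The exact 95% interval of a count of 0 reaches 3.69 counts, which is 6.01 to 6.72 CPM in siHoxa5 and 5.67 to 5.86 CPM in siN. For a count of 1 it reaches 5.57 counts, 9.10 CPM in siHoxa5 library 1 and 8.77 CPM in siN library 3. The limit of counting was set at 3 counts, which is 4.89 to 5.46 CPM in a siHoxa5 library and 4.60 to 4.76 CPM in a siN library. This limit is not an upper bound for the counts seen. Summed over each group, STC2 had 1 count in siHoxa5 and 2 in siN, both under the 3 counts that set the limit (1.29 CPM over the siHoxa5 group and 1.17 CPM over the siN group), so no fold change is given. The counts do not show how much STC2 RNA the cells held, nor whether they held less of it than of STC1, since the gene models used for counting are not known.

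The summed share of counts in cardiomyocyte markers was higher in siHoxa5, as STC1 was, but did not pass after adjustment. A list at the smallest p that this test allows could not pass alone over 6 lists, so not passing decided nothing here. The 15 markers summed to 3.40% ± 0.0905 of counts in siHoxa5 (range 3.33% to 3.52%) and 2.51% ± 0.0943 in siN (2.39% to 2.61%; SD, n = 4 each; exact permutation p = 0.0286, two-sided, the smallest that 70 assignments allow, adjusted p = 0.171 over 6 lists). Most of that share was MYH6, at 30432 ± 1417 CPM in siHoxa5 and 21752 ± 839 CPM in siN. MYH6 (the alpha myosin heavy chain, log2 fold change 0.48), TTN (titin, 0.51) and ACTN2 (alpha-actinin of the Z-disc, 0.31) rose, and TNNT2 (cardiac troponin T, -0.44) fell. The other tested markers, TNNC1 (-0.14), MYBPC3 (0.50) and RYR2 (0.47), did not pass. Fibroblast markers, of which 4 of 12 were at 0, summed to 1.07% to 1.26% of counts in siHoxa5 and 1.02% to 1.08% in siN (exact permutation p = 0.0571, adjusted p = 0.171), with COL1A1 alone passing (0.21). Most of the fibroblast share was COL1A1, at 10284 ± 725 CPM in siHoxa5 and 8861 ± 166 CPM in siN. Nearly all the rest was COL1A2, at 1858 ± 330 CPM in siHoxa5 and 1673 ± 159 CPM in siN. The share therefore reads these collagen rows rather than fibroblast content. Of 12 endothelial markers 9 were at 0, PECAM1, CDH5 and VWF among them, and the list summed to 0.000348% to 0.00341% in siHoxa5 and 0.00141% to 0.00315% in siN. Smooth muscle and pericyte markers (5 of 10 at 0) summed to 0.00143% to 0.00341% in siHoxa5 and 0.00110% to 0.00352% in siN, and epicardial markers (4 of 8 at 0) to 0.00400% to 0.00520% in siHoxa5 and 0.00410% to 0.00629% in siN. Of 11 macrophage and leukocyte markers with a row, 9 were at 0, CD68 and ADGRE1 among them, with a single count in each group (at most 0.000179% of a library in siHoxa5 and 0.000156% in siN). The adjusted permutation p of these last 4 lists lay between 0.857 and 1.0. The part of these shares in the difference of STC1 was not tested.

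The 6 genes named next followed STC1 most closely across the libraries. Likeness was measured as the root mean square difference between log2 CPM profiles over the 8 libraries, each centred on the gene's own mean, among 2787 other genes with at least 20 CPM on average. The median gene was 0.66 away from STC1, and a flat profile would be 0.63 away. PPARGC1A, the coactivator PGC-1alpha of mitochondrial genes, was nearest at 0.15. It had 258, 308, 243 and 209 CPM in siHoxa5 libraries 1 to 4, against 105, 129, 110.2 and 94.98 CPM in siN libraries 1 to 4, with library 2 the highest and library 4 the lowest of siHoxa5 as for STC1. Next came MYH13, a myosin heavy chain of eye muscles (0.21), KCNH2, a repolarizing potassium channel (0.22), FGF13, an intracellular regulator of sodium channels (0.24), SNAP91, a clathrin assembly protein (0.25), and CNNM2, a membrane protein of magnesium transport (0.28). MYH13 is similar to the abundant cardiac myosin genes, and how shared reads were counted is not known. All 6 were higher in siHoxa5, with log2 fold changes of 0.82 for SNAP91 to 1.21 for PPARGC1A, smaller than that of STC1. In CNNM2, unlike STC1, library 4 was the highest of the siHoxa5 libraries at 124 CPM. The profiles hold the difference between the groups as well as the spread within them, and likeness is given as a description. Since the genes were picked by this likeness, a shared order of libraries follows partly from the choice. For STC1, the count intervals of siHoxa5 library 2 (233 to 323 CPM) and library 4 (179 to 259 CPM) overlapped.

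**Figure D3:**
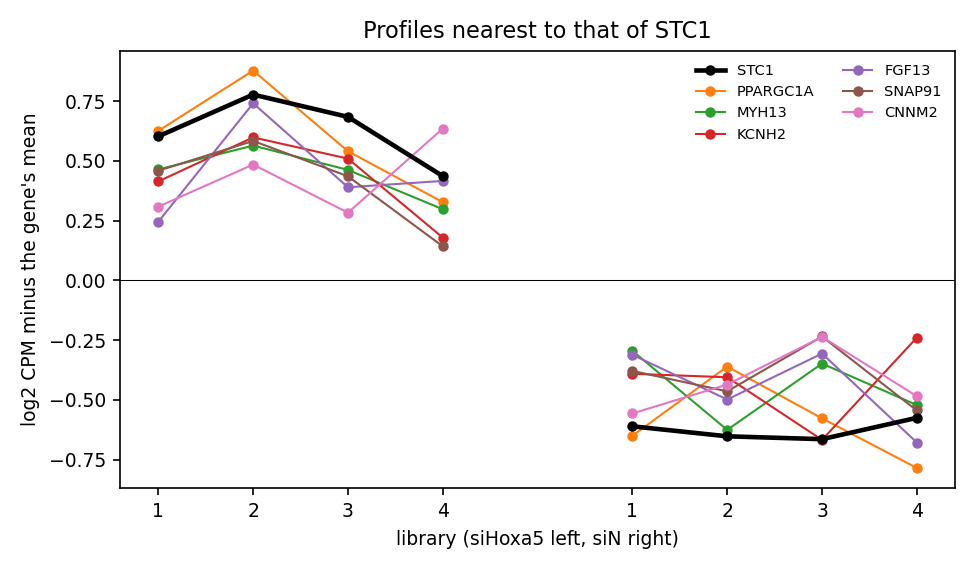
Log2 CPM minus each gene's mean over the 8 libraries, for STC1 (black) and the 6 genes with the nearest profiles, siHoxa5 left and siN right; lines only join the points of a gene, as libraries have no order. All 7 genes are above their mean in every siHoxa5 library and below it in every siN library.

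In 6 lists, genes of processes linked to stanniocalcins, and other secreted factors of cardiomyocytes (the last list), were read from the same fit. Over the lists together, 48 of 146 listed genes were tested. Of these, 9 were called (18.8%, beside 7.12% of all tested genes), 3 higher and 6 lower in siHoxa5. The list of other secreted factors gave 1 of the higher and 3 of the lower calls. The lists were chosen with earlier results of these data known, so nothing is read from this share. The median log2 fold change of the tested members was -0.03, against 0.00 over all tested genes (-0.0037 before rounding). DESeq2 called 5 members, and as few as 5 were called when siN library 3 was left out. Adjusted p-values below are from edgeR's quasi-likelihood test over all tested genes.

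None of the 3 tested genes of the PAPP-A and IGF axis passed. IGFBP7, a secreted IGF-binding protein, had 314 ± 49.6 CPM in siHoxa5 and 307 ± 22.8 CPM in siN, a log2 fold change of 0.03 (SE 0.10). IGF1R, the receptor of IGF1, had -0.08 (SE 0.12), and IRS2, an adaptor below it, 0.13 (SE 0.25). Of the 18 listed genes 7 were at 0, PAPPA2, INSR and IGF2 among them, and 8 had counts too low to test. PAPPA, the protease that stanniocalcins inhibit, was one of these, with 9 counts in siHoxa5 and 15 in siN over the 4 libraries of each group, a ratio of rates of 0.663 (exact 95% interval 0.256 to 1.62). IGFBP4, a substrate of PAPP-A, had 1 count in siHoxa5 and 0 in siN, and IGFBP5, another, had 38 in siHoxa5 and 30 in siN (ratio 1.40, 0.844 to 2.34). IGF1 had 9 to 15 counts in a siHoxa5 library and 3 to 9 in a siN library, 48 against 24 in sum, a ratio of 2.21 (1.33 to 3.77). Without the filter on low counts, edgeR gave IGF1 an adjusted p of 0.167 and a log2 fold change of 1.14 (SE 0.42). IRS1, an adaptor of the same receptor family, had 18 counts in siHoxa5 and 11 in siN (ratio 1.81, 0.809 to 4.24). These low-count genes had at least 20 counts over all libraries, except IGFBP4, which was named for its role, and their intervals cover counting error only.

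Among genes of calcium and phosphate transport, processes that stanniocalcins are known to act on in fish, 2 phosphate carriers were lower and a calcium channel was higher in siHoxa5. Of 10 tested genes 1 rose, 2 fell and 7 did not pass, with a median log2 fold change of -0.05; 11 of the 26 listed were at 0. XPR1, the exporter of inorganic phosphate, had 513, 441, 422 and 438 CPM in siHoxa5 libraries 1 to 4, against 755, 708, 719 and 628 CPM in siN libraries 1 to 4. The groups did not overlap, and the log2 fold change was -0.63 (SE 0.08, adjusted p = 2.05e-11). SLC20A1, the sodium-phosphate importer PiT-1, averaged 151 ± 17.9 CPM in siHoxa5 and 232 ± 36.5 CPM in siN (SD, n = 4 each), also without overlap (log2 fold change -0.61, SE 0.12, adjusted p = 6.48e-05). SLC20A2, the related importer PiT-2, was listed at 0. CACNA1G, a T-type calcium channel, had 411 to 514 CPM in siHoxa5 and 314 to 389 CPM in siN (0.43, SE 0.09, adjusted p = 1.59e-04). All 3 kept their calls under the 15 alternatives tried.

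The tested L-type channel genes did not pass. CACNA1C, the pore of the cardiac L-type channel, averaged 297 ± 33.0 CPM in siHoxa5 and 245 ± 17.8 CPM in siN (SD, n = 4 each). Its log2 fold change was 0.28 with SE 0.10 and an edgeR adjusted p of 0.0802 (0.0437 without siHoxa5 library 3). CACNB2, its beta subunit, had an adjusted p of 0.0678 in edgeR at a log2 fold change of 0.28 (SE 0.10), with no overlap between 292 to 339 CPM in siHoxa5 and 247 to 277 CPM in siN. ATP2B1, a calcium pump of the plasma membrane, had -0.14 (SE 0.11). CACNA1D, another L-type pore, was too low to test, with 36 counts in siHoxa5 and 27 in siN (ratio 1.47, exact 95% interval 0.870 to 2.52). ATP2B2, a related pump also too low to test, had 31 counts in siHoxa5 and 21 in siN (ratio 1.63, 0.908 to 2.99). These intervals cover counting error only. The calcium-sensing receptor CASR and the epithelial calcium channels TRPV5 and TRPV6 were at 0 in all libraries.

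Of 3 tested genes of mitochondrial uncoupling and antioxidant defence, 1 rose and 2 did not pass (median -0.04), and 5 of 14 in the table were at 0, UCP1, UCP3 and SOD2 among them. SLC25A4, the ADP/ATP carrier of heart muscle, had 1448 ± 73.4 CPM in siHoxa5 and 1274 ± 66.7 CPM in siN (0.18, SE 0.06, edgeR adjusted p = 0.0303). Its call was lost with DESeq2, without the filter, and without siHoxa5 library 4 or siN library 1, 2 or 3. UCP2, the uncoupling protein with counts, had 17.7 ± 7.21 CPM in siHoxa5 and 26.5 ± 6.61 CPM in siN (-0.55, SE 0.33, edgeR adjusted p = 0.365), and the groups overlapped. Without siHoxa5 library 4 its log2 fold change was -0.35, and without siHoxa5 libraries 2 and 4 it was -0.16. SLC25A5, another ADP/ATP carrier, had -0.04 (SE 0.06).

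None of 12 tested hypoxia-responsive genes passed (median log2 fold change 0.08), and 12 of the 29 listed were at 0. VEGFA, the angiogenic growth factor, had 981, 1199, 942 and 873 CPM in siHoxa5 libraries 1 to 4, against 1204, 1187, 1064 and 1098 CPM in siN libraries 1 to 4. Its siHoxa5 library 2 lay among the siN libraries. Its adjusted p in edgeR was 0.0590 at a log2 fold change of -0.19 (SE 0.07). It passed without siHoxa5 library 2 (log2 fold change -0.29, adjusted p = 0.00125), without siHoxa5 libraries 2 and 4 (-0.24, adjusted p = 0.00575) and with the repeat number as a block (adjusted p = 0.0230). SLC2A1, the glucose transporter GLUT1, had -0.36 (SE 0.23), without overlap, and PDK1, a kinase that restrains pyruvate dehydrogenase, 0.68 (SE 0.38; 1.06 without siN library 3).

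In the ATF4 and unfolded protein response list, HSPA5 alone was called lower and 7 of the 8 tested genes did not pass. Log2 fold changes ran from -0.61 to -0.0078, with a median of -0.29. Of 30 listed genes, 9 were at 0, DDIT3, TRIB3 and ATF3 among them. HSPA5, the chaperone BiP, had 897 to 951 CPM in siHoxa5 and 1140 to 1208 CPM in siN, with an edgeR adjusted p of 5.02e-06 at a log2 fold change of -0.35 (SE 0.06). HSP90B1, the chaperone GRP94, had -0.31 (SE 0.11, edgeR adjusted p = 0.0559; lowest 0.0162 over 15 alternatives, passing with library totals alone, with the replicate block and without siHoxa5 library 1 or siN library 1). ATF4 itself had -0.03 (SE 0.14). CEBPB, a stress-responsive transcription factor, had -0.61 (SE 0.35), and SHMT2, a mitochondrial enzyme of serine metabolism, -0.26 (SE 0.18). Leaving out a library moved CEBPB to -0.39 (siHoxa5 library 2) and SHMT2 to -0.15 (siHoxa5 library 4). ATF5, a relative of ATF4 too low to test, had 20 counts in siHoxa5 and 44 in siN in sum (ratio 0.502, exact 95% interval 0.280 to 0.870; fitted without the filter, edgeR adjusted p = 0.404).

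Among other factors that cardiomyocytes can secrete, 13 of 31 were tested, of which 1 rose, 3 fell and 9 did not pass (median -0.13), and 11 were at 0. INHBA, the beta A subunit of activin, had 315, 219, 253 and 280.1 CPM in siHoxa5 libraries 1 to 4, against 448, 439.7, 384 and 358 CPM in siN libraries 1 to 4. The groups did not overlap (-0.61, SE 0.10, edgeR adjusted p = 4.09e-07), and the call held under all 15 alternatives. BMP2, a bone morphogenetic protein, fell, with 16.3 to 30.9 CPM in siHoxa5 and 33.8 to 47.6 CPM in siN (-0.84, SE 0.28, edgeR adjusted p = 0.0446). BMP4, of the same family, rose, with 144 to 199 CPM in siHoxa5 and 111 to 153 CPM in siN (0.43, SE 0.13, edgeR adjusted p = 0.0257). TIMP3, an inhibitor of matrix proteases, also fell, with 147 to 256 CPM in siHoxa5 and 249 to 297 CPM in siN (-0.37, SE 0.11, edgeR adjusted p = 0.0316). The calls of BMP2, BMP4 and TIMP3 were lost with DESeq2, without siHoxa5 libraries 2 and 4, and without siHoxa5 library 2. BMP2 also lost its call with limma-voom, with low counts kept in, and when siHoxa5 library 3 or siN library 2, 3 or 4 was left out. BMP4 lost it without siHoxa5 library 3 or siN library 1, 2 or 3, and TIMP3 without siHoxa5 library 4 or siN library 1, 3 or 4; without siHoxa5 libraries 2 and 4 the log2 fold change of TIMP3 was -0.10, and without library 4 alone it was -0.24. TGFB3, a transforming growth factor, had 0.11 (SE 0.06) and VEGFB, of the VEGF family, 0.31 (SE 0.17).

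**Figure D4:**
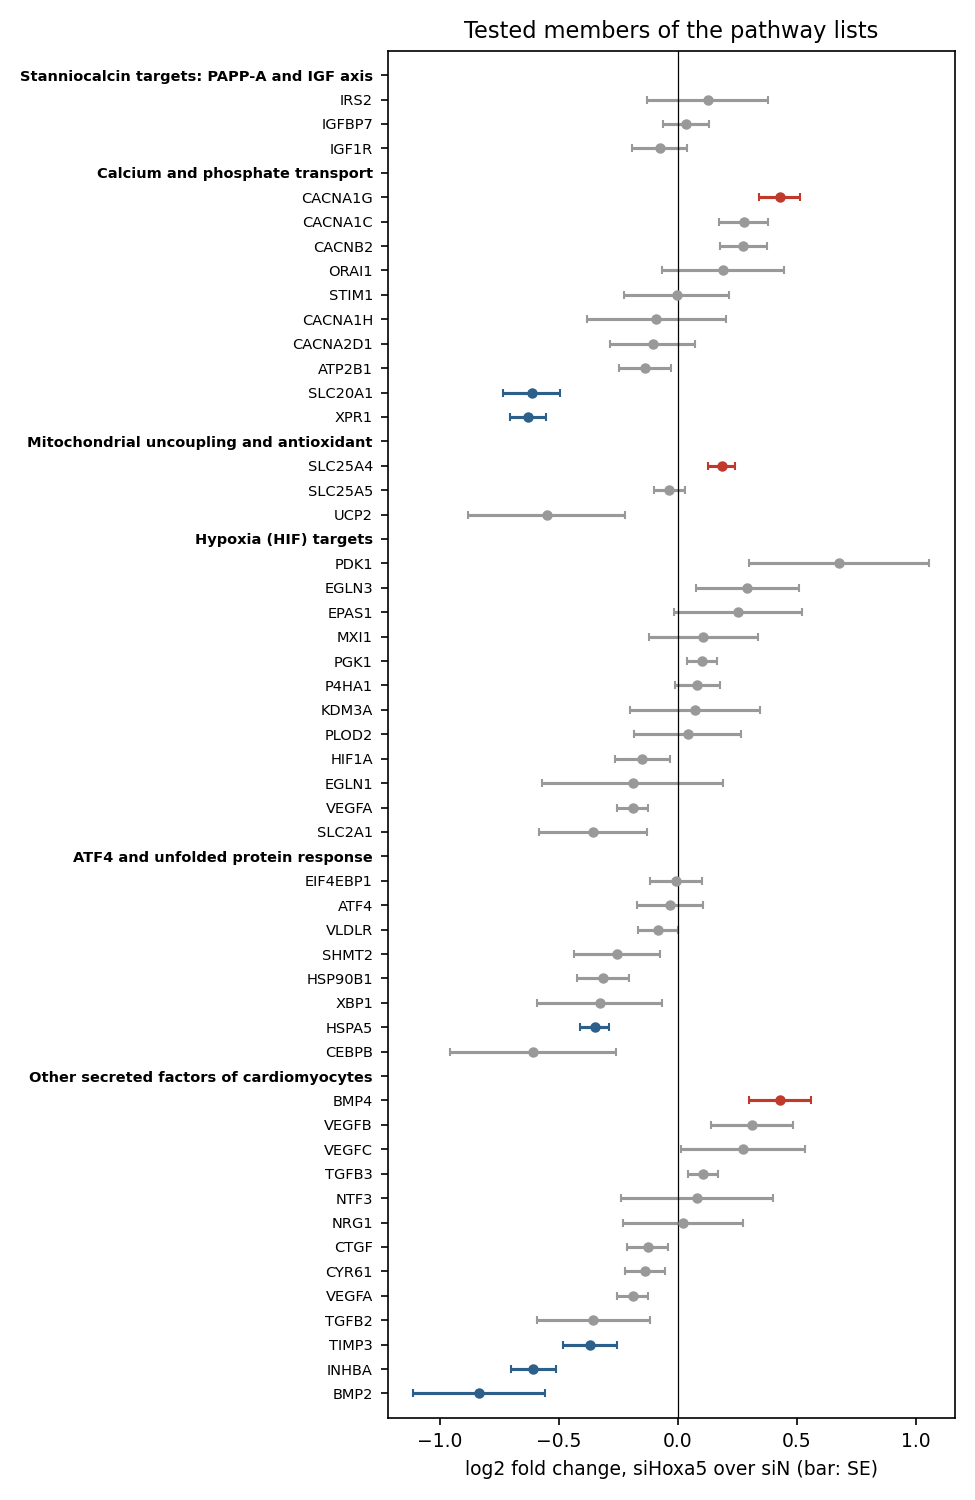
Log2 fold change (siHoxa5 over siN) with its SE for each tested member of the 6 pathway lists, red where called higher, blue where called lower and grey where the adjusted p was 0.05 or more. VEGFA stands in 2 lists; calls are 3 higher and 6 lower, with XPR1 (-0.63) and INHBA (-0.61) among the lower and CACNA1G (0.43) the higher gene with the smallest adjusted p.

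Genes that lie beside Stc1 gave little signal. Of 10 protein-coding genes that start within 500 kb of its start, 7 have a row in the table, 2 of these (SLC25A37 and ENTPD4) had any count, and none was tested. Of 6 such neighbours of Stc2, 5 have a row, 3 had a count and ERLEC1 alone was tested. ERLEC1, a lectin of the endoplasmic reticulum, had 64, 48, 70 and 63 counts in siHoxa5 libraries 1 to 4, against 117, 82, 104 and 93 counts in siN libraries 1 to 4. It averaged 105 ± 12.7 CPM in siHoxa5 and 154 ± 22.1 CPM in siN (SD, n = 4 each), and edgeR gave an adjusted p of 0.00496 at a log2 fold change of -0.55 (SE 0.14). Its call was lost without siN library 1 (adjusted p = 0.0648) and without siHoxa5 libraries 2 and 4 (0.0624), over alternatives with adjusted p from 0.00266 to 0.0648.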

How the data were processed

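RNA was measured in 8 libraries, 4 siHoxa5 and 4 siN, grouped by the sample titles. Values in the deposited files are estimated counts for each symbol, whole except in 4 rows, and not normalized, as their differing totals show. The tools named in the submitters' processing notes are STAR 2.6.1b, FastQC 0.11.8, R 3.5.3 and HTSeq, and the genome named is mm10. How reads were counted (gene models, strand, reads that match several places) was not given in the sources used here. All 8 library files were identical to their columns of the series table. Of 33514 rows, 16245 matched a GENCODE M21 symbol once case was ignored, 19 exactly. Row names follow human usage, and the gene models used for counting were neither stated nor tested.

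Counts were rounded and tested with edgeR 4.0.16 (quasi-likelihood, robust, TMM scaling, filterByExpr with minimum count 10 and minimum total 15; R 4.3.3), with Benjamini-Hochberg adjustment at 0.05 over 3020 genes holding 98.6% of counts. SE is the log2 fold change over the root of its F statistic. DESeq2 1.42.0 and limma 3.58.1 (voom) were alternatives, as were other scalings, no filter, a replicate block and left-out libraries. CPM uses TMM-scaled totals of the tested genes. Marker shares were compared by exact permutation. Simulated counts for this comparison (3019 genes tested) gave back 28.0% of genes changed 1.25-fold, 66.7% at 1.5-fold and 95.8% at 2-fold, with 6 false among 145 calls.

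Members, gene lists, tests and alternatives were chosen with earlier results of these data known. Named genes are, in each list, all called members and up to 3 more with the smallest p, the neighbours within 500 kb, the 6 nearest profiles (at least 20 CPM; prior count 2 on the log2 scale) and cardiomyocyte markers; genes named beyond these were chosen after their values were seen.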

Additional observations from a re-analysis of the deposited data

Results flagged for a closer look

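Samples far from the other 3 of their group were looked for in 68 groups of 4 (STC1, the named list members, ERLEC1, the marker shares and the library totals), by Dixon's ratio of the gap to the range. Chance flags about 1 in 20 such groups, and 6 stood out. STC1 was not among them. SLC25A5 had 1297 CPM in siHoxa5 library 4, against 976 to 1003 CPM in the other siHoxa5 libraries. IRS2 had 39.7 CPM in siN library 2, against 33.7 to 34.6 CPM in the other siN libraries. VEGFB had 58.2 CPM in siN library 3, against 79.7 to 82.5 CPM in the other siN libraries. The share of epicardial and mesothelial markers was 0.00400% in siHoxa5 library 4, against 0.00500% to 0.00520% in the other siHoxa5 libraries. The macrophage and leukocyte markers had a single count in siHoxa5 library 2 (0.000179% of its counts) and a single count in siN library 3 (0.000156%), with 0 in the other 3 libraries of each group.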

How the results depend on the processing

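The log2 fold change of STC1 (1.28) kept its direction under all 15 alternatives, at 1.23 to 1.34 with a library left out and 1.26 to 1.30 otherwise. No fold change of STC2 is given under any setting, as both groups were under the limit of counting. The 215 calls over the whole table became 109 with DESeq2 and 143 without siHoxa5 libraries 2 and 4, and ran from 145 to 260 with a library left out; without the filter there were 164, 96 higher and 68 lower, and with library totals alone 99 higher and 120 lower. The 9 calls among pathway list members became 5 with DESeq2 and ran from 5 to 10 with a library left out, the lowest without siN library 3. Repeat numbers are shared between the groups, and deviations of same-numbered libraries correlated by -0.02 to 0.07. With counts this low, the deviations hold much counting error, so they do not show whether same-numbered libraries shared an animal or a culture. With the replicate block STC1 had 1.28, and 250 genes were called over the table and 11 in the lists. With a library left out, the direction of IGFBP7 (-0.0211 to 0.137), IRS2 (-0.0872 to 0.272) and SLC25A5 (-0.141 to 0.0059) turned, in each without siHoxa5 library 1 (-0.0126, -0.0872 and 0.0059) and in IGFBP7 also without siHoxa5 library 3 (-0.0211); none of them had been called. In all, 13 of 26 named members moved by over 1.5 times with a library left out, and TIMP3 (-0.24 without siHoxa5 library 4) was the called one among them. The cause of these changes was not tested. The difference in the cardiomyocyte share was 0.858 to 0.930 percentage points with a library left out, and that in the fibroblast share 0.122 to 0.185, the highest without siHoxa5 library 2. The small differences in the endothelial, smooth muscle, macrophage and epicardial shares changed sign with 1 or more of the libraries left out. Few counts and unknown gene models both limit what can be said of STC2, HOXA5 and PAPPA.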
